A study of Mus musculus with 36 samples.

Results

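The 10 genes described here encode the core of the NF-κB system and were measured in 4 kinds of primary mouse cell, namely hepatocytes, adipocytes, macrophages and myotubes. They are the 5 subunits Nfkb1, Nfkb2, Rela, Relb and Rel, the feedback inhibitors Nfkbia and Tnfaip3, and the 3 parts of the IκB kinase (IKK) complex Ikbkb, Chuk and Ikbkg. Each symbol matched 1 of the 54347 genes of the table. All 10 were among the 15340 genes that passed a filter on low counts (a CPM above 1 in at least 6 of 36 libraries), and the lowest level of any member in any library was 5.40 CPM. CPM is a gene's count scaled to the TMM-adjusted total of its library, so it compares 1 gene between groups and not genes of different length. The family was chosen with results of these data known, among them the low level of Ikbkg in hepatocytes given butyrate. The members were thus chosen by their name and by the values of butyrate in hepatocytes, which are given as a description with no test.

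NF-κB subunits form dimers that are held in the cytoplasm by inhibitors of the IκB family such as Nfkbia. In the canonical pathway, signals from receptors for TNF, interleukin-1 and microbial products activate the kinases Ikbkb and Chuk together with their scaffold Ikbkg (NEMO), IκB is phosphorylated and degraded, and dimers of the Nfkb1 product p50 with Rela or Rel enter the nucleus. In the non-canonical pathway Chuk acts without Ikbkg, p100 from Nfkb2 is processed to p52, and p52 pairs with Relb. Nfkbia and Tnfaip3 (A20) are themselves NF-κB target genes and end the signal.

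RNA was sequenced from cells of male mice, labelled C57Bl/6 throughout, with C57BL/6NHsd named in the methods for the hepatocytes, so strain and cell type cannot be told apart between hepatocytes and the others. The cells were exposed for 6 h to PBS as control, to 5 mM β-hydroxybutyrate (βOHB, the sodium salt of the R form) or to 5 mM butyrate as its sodium salt. βOHB differs from butyrate by a hydroxyl group on the beta carbon. With 4 cell types and 3 treatments there were 12 groups of 3 libraries. In GRCm38 the members lie at chr3:135584655-135691547 (Nfkb1, minus strand), chr19:46304320-46312385 (Nfkb2, plus), chr19:5637483-5648130 (Rela, plus), chr7:19606217-19629438 (Relb, minus), chr11:23736847-23770970 (Rel, minus), chr12:55489410-55492647 (Nfkbia, minus), chr10:19000910-19015657 (Tnfaip3, minus), chr8:22659212-22706589 (Ikbkb, minus), chr19:44073335-44107480 (Chuk, minus) and chrX:74393290-74453854 (Ikbkg, plus), and counts are over whole genes. No source used here gives the age of the mice or says whether the 3 libraries of a group came from separate cultures or animals, so the p-values measure the spread between these libraries, which may be technical. Adipocytes were differentiated from the pooled stromal vascular cells of inguinal fat with an induction mix holding dexamethasone and rosiglitazone, macrophages from bone marrow with medium conditioned by L929 cells, and myotubes from hindlimb myoblasts. Hepatocytes were isolated by collagenase perfusion and plated in medium with dexamethasone, which was washed off and replaced by medium without it the night before treatment. The labels name no inflammatory stimulus in any group.

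Libraries held 18366289 to 23221473 estimated counts (median 22177562). The markers of each labelled cell type were high in its own libraries, with summed levels of 6116 to 8322 CPM for 5 adipocyte markers, 10628 to 17268 CPM for 7 macrophage markers, 15896 to 32629 CPM for 7 myotube markers and 33254 to 42795 CPM for 7 hepatocyte markers. A few myotube libraries stood apart. The 7 hepatocyte markers summed to at most 0.0440 CPM in the myotube controls (6 of the 7 were at 0 in all 3 libraries), but to 31.1, 551 and 128 CPM in the butyrate libraries 1, 2 and 3 and to 24.2 CPM in βOHB library 3. Butyrate library 3 of the myotubes differed most from its replicates of all libraries, with a chi-square per gene of 37.0 and 41.7 against libraries 1 and 2, which differed from each other by 8.57. It also had the lowest sum of myotube markers, at 15896 CPM against 21258 and 20750 CPM. Without it butyrate against control called 5 members in myotubes, as with all libraries. The share of all tested genes called with all libraries was 66.5%. Macrophage markers also differed between myotube groups, at 277, 225 and 109 CPM in the controls, 60.3, 44.8 and 107 CPM with βOHB and 18.3, 72.8 and 26.9 CPM with butyrate. Fibroblast markers summed to 4990 to 7408 CPM in adipocytes, 1502 to 2308 CPM in macrophages and 1056 to 1428 CPM in myotubes. In adipocytes the macrophage markers summed to 304 to 394 CPM. The part of these other cells in the myotube, macrophage and adipocyte results was not tested.

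The promoters of 4 members are shown as examples that differ in NF-κB matches. They are from RefSeq on GRCm38.p6 and run 5′ to 3′ on the gene's strand from 250 bases before a start to 50 bases after it, with matches to the consensus NF-κB (κB) motif, searched on both strands, in capitals. The windows are chr19:46304487-46304786 for Nfkb2, chr12:55492598-55492897 for Nfkbia, chr19:5637291-5637590 for Rela and chrX:74393041-74393340 for Ikbkg.
Nfkb2: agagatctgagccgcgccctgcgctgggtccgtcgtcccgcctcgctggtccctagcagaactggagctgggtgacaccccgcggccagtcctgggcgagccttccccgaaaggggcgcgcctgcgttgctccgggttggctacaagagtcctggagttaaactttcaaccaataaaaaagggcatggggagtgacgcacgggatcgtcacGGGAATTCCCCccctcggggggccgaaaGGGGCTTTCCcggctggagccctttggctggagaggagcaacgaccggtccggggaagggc
Nfkbia: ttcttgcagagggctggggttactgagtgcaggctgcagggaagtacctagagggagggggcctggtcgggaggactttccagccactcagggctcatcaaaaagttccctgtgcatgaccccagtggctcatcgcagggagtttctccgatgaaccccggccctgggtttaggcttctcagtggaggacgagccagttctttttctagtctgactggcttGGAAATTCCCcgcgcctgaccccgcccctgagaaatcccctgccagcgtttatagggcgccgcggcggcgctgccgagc
Rela: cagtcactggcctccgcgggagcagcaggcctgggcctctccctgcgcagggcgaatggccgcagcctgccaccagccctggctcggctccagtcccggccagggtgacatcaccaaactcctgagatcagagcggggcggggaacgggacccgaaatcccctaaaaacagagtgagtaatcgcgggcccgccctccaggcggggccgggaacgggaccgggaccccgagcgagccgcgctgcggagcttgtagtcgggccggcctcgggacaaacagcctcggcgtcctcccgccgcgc
Ikbkg: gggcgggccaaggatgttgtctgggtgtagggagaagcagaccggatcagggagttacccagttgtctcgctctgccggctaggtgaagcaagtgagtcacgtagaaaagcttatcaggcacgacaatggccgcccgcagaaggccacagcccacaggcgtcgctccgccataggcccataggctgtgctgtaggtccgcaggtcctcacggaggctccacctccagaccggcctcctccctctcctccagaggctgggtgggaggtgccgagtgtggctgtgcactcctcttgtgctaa

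The Nfkb2 window held matches at bases -39 to -29 and -11 to -2 from the start, and the Nfkbia window held 1 match at -29 to -20. No match was present in the windows of Rela, Ikbkg and Chuk. Rel had 1 match and Tnfaip3 had 2, which made 4 of the 7 members with a window in the table that held at least 1. Of 32851 windows over 27025 genes, 8.46% held at least 1 match and 0.521% at least 2. These matches are letters in a window, not shown sites of binding, and their part in the butyrate changes was not tested. Each member has 1 window here, at the start nearest the 5′ end of the gene. Ikbkg has 4 starts and Nfkb2 has 3, and the Nfkb2 start used lies 417 bases from the gene start. Matches at the other starts are not given.

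In control cells the family was highest in hepatocytes, with Rel as the exception. Mean control levels of Rela, the transactivating partner of p50, were 226 ± 7.62 CPM in hepatocytes, 99.4 ± 1.2 in macrophages, 73.6 ± 4.04 in adipocytes and 65.8 ± 1.18 in myotubes (SD, n = 3 here and below). Ikbkg followed the same order at 221 ± 17.4, 93.2 ± 2.00, 55.3 ± 3.57 and 48.7 ± 1.41 CPM, as did Nfkb1 at 115 ± 4.13, 91.1 ± 1.94, 67.2 ± 1.60 and 47.8 ± 1.43 CPM. Rel, the subunit of lymphoid and myeloid cells, stood at 79.3 ± 2.77 CPM in macrophages against 14.7 ± 1.40 in myotubes, 14.0 ± 1.68 in hepatocytes and 9.25 ± 0.450 in adipocytes. Its level in macrophages was 2.43 log2 units above that in myotubes, the next in order. In bulk RNA, fewer cells of a type and less RNA per cell cannot be told apart.

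Of the 60 differences between pairs of control groups (10 genes in 6 pairs of cell types), 56 passed an FDR below 0.05 by the quasi-likelihood test of edgeR (adjusted p by Benjamini-Hochberg over all tested genes). Most genes differed between these cell types, since 77.5% of all tested genes were called between adipocytes and macrophages, 78.2% between adipocytes and myotubes, 81.1% between adipocytes and hepatocytes, 82.2% between macrophages and myotubes, 82.1% between macrophages and hepatocytes and 86.6% between myotubes and hepatocytes. The 4 pairs not separated were neighbours in the order of their gene. They were Relb in adipocytes and myotubes (0.12 log2, adjusted p = 0.159), Rel in myotubes and hepatocytes (0.07, 0.452, but 0.32 with adjusted p = 0.00109 on library totals alone), Tnfaip3 in macrophages and myotubes (0.14, 0.101) and Chuk in macrophages and adipocytes (0.03, 0.737). Nfkb2 was ordered otherwise than its relative Nfkb1, with myotubes (56.9 ± 2.42 CPM) above macrophages (50.9 ± 2.44) and adipocytes (31.8 ± 1.68). The call between myotubes and macrophages was lost without macrophage control 1 (adjusted p = 0.121) or 3 (0.0541), without myotube control 2 (0.0654) or 3 (0.0973) and without a filter on low counts (0.274). Other calls lost without 1 library were Rela (0.0674) and Ikbkg (0.0538) between adipocytes and myotubes without adipocyte control 1, and Relb between macrophages and myotubes without macrophage control 2 (0.0551) or myotube control 1 (0.113). Nfkb1 was no longer called between macrophages and hepatocytes with library totals alone (adjusted p = 0.129). Ikbkb was 0.17 log2 units higher in hepatocytes than in macrophages, and with library totals alone as the scale it was 0.080 higher in macrophages. Without a filter on low counts this call was lost (adjusted p = 0.151), as were those of Relb between macrophages and myotubes (0.187) and Ikbkb between adipocytes and myotubes (0.117).

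Per kb of merged exons, Rela was at 73.5 CPM in hepatocytes, 32.4 in macrophages, 24.0 in adipocytes and 21.4 in myotubes. Nfkbia, the IκBα inhibitor that binds Rela dimers, was at 59.0, 30.6, 25.9 and 9.46 CPM per kb in these cells. The lowest member per kb of merged exons was Rel in hepatocytes (1.87), Ikbkb in macrophages (3.48) and myotubes (1.78), and Tnfaip3 in adipocytes (0.909). Per kb of the longest transcript, Rela was highest in all 4 cell types, whereas by merged exons Nfkbia led in adipocytes. By the longest transcript the lowest was Tnfaip3 in macrophages (4.45) and Rel in myotubes (1.97), with Ikbkb at 13.7 and 7.02 there. Exon length matters most for Ikbkb, whose merged exons span 19078 bases against 4845 in its longest transcript.

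**Figure D1:**
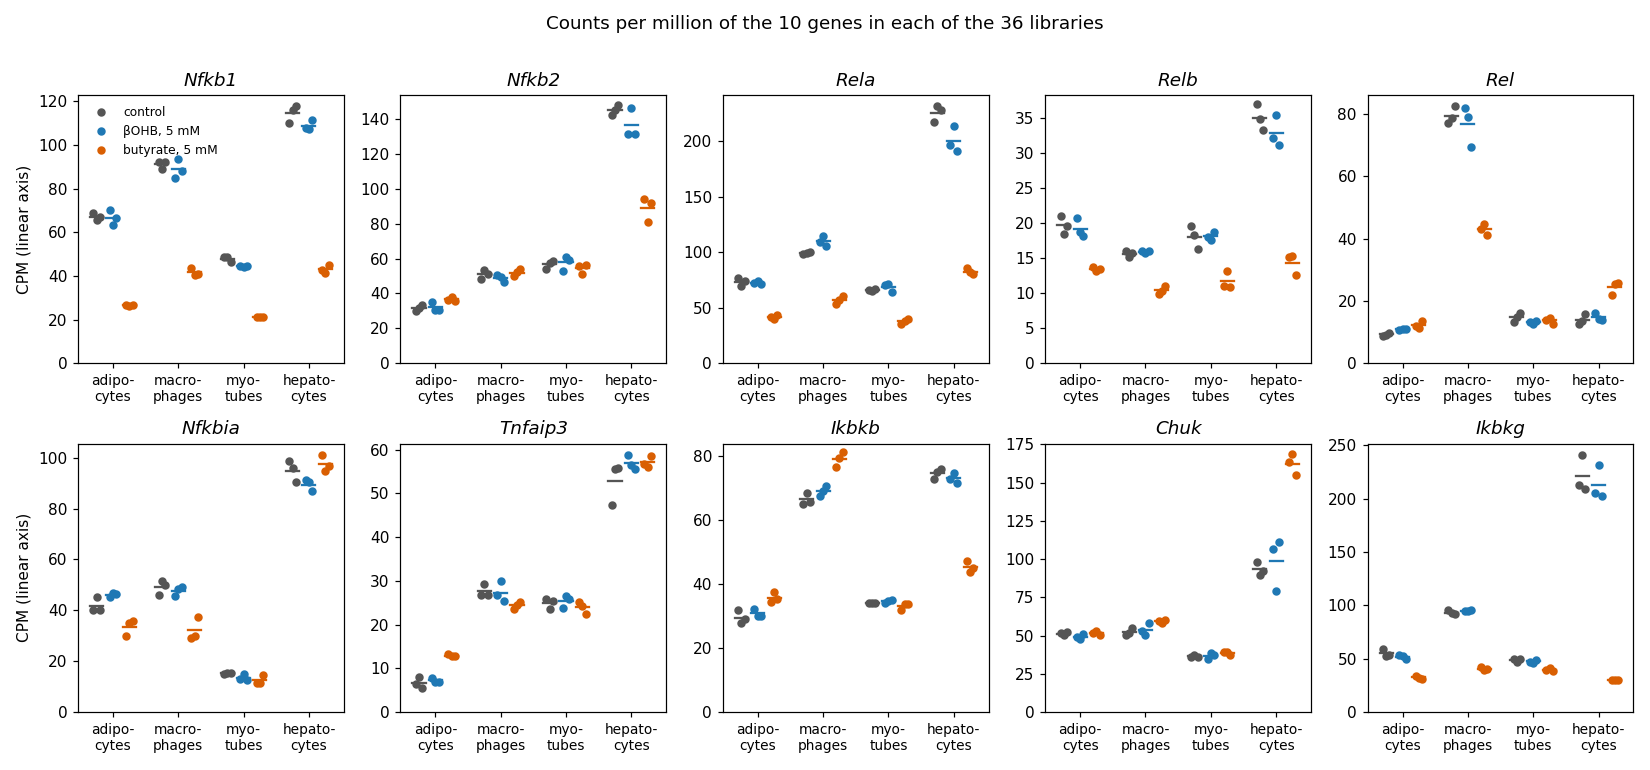
Levels of the 10 members (CPM, linear axis) in each of the 36 libraries by cell type, with control, βOHB and butyrate libraries side by side and a bar at each group mean (n = 3). With butyrate, Nfkb1, Rela, Relb and Ikbkg lie below their controls in adipocytes, macrophages and myotubes. Of all tested genes 16.4% were called lower in each of these 3 cell types. Butyrate in hepatocytes, whose values chose the family, is shown as a description.

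**Figure D2:**
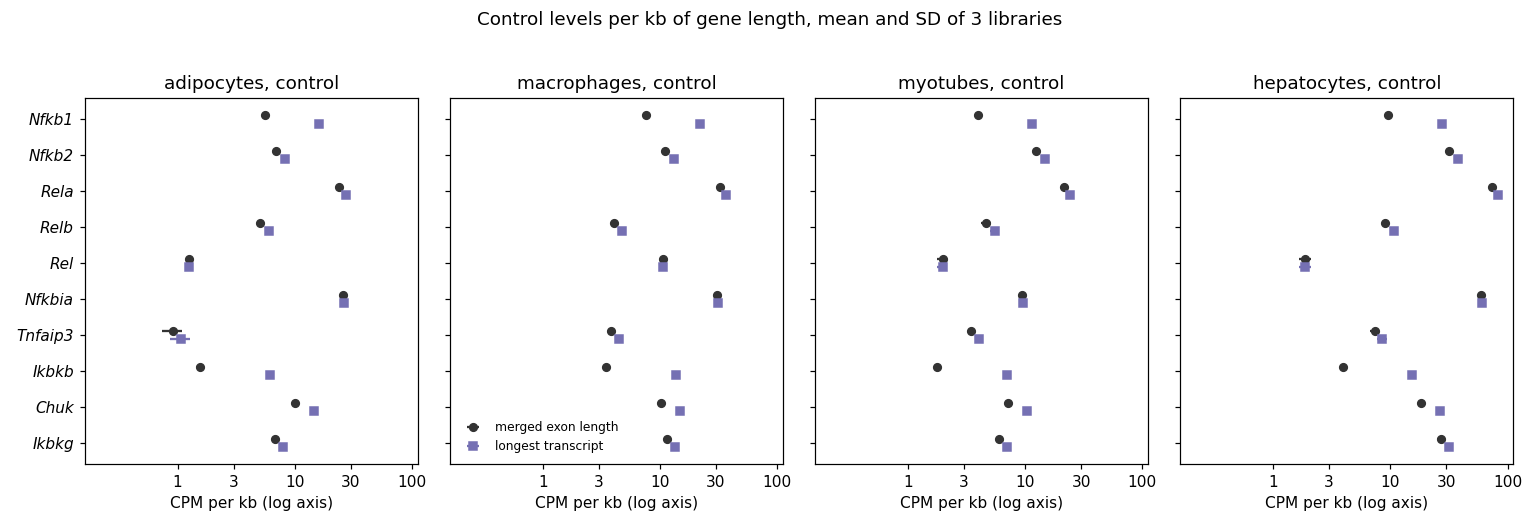
Control levels of the 10 members in the 4 cell types (CPM per kb, log axis), as the mean and SD of 3 libraries, per kb of merged exons (circles) and of the longest transcript (squares). By merged exons Rela reaches 73.5 in hepatocytes, and Tnfaip3 in adipocytes is lowest at 0.909.

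Butyrate lowered Nfkb1, Rela, Relb, Nfkbia and Ikbkg in adipocytes, macrophages and myotubes alike, while the other members rose, fell or were not called depending on the cell type. In adipocytes 9 of 10 members were called at an FDR below 0.05, 4 raised and 5 lowered, against 61% of all tested genes (30.7% higher and 30.3% lower). In macrophages 8 were called, 2 raised and 6 lowered, against 65% of genes (31.9% higher and 33.2% lower). In myotubes 5 were called, all lowered, against 66.5% of genes (33.1% higher and 33.4% lower). In adipocytes endothelial markers summed to 188 to 215 CPM in the controls and 122 to 143 CPM with butyrate (3 of 5 called lower). Of the adipocyte markers 3 of 5 were also called lower there, and of the myotube markers 3 of 7 in myotubes. The part of these shifts in the adipocyte and myotube results was not tested. In myotubes proliferation markers summed to 33.8 to 73.5 CPM in the controls, 20.5 to 25.6 CPM with βOHB and 15.9 to 21.1 CPM with butyrate (with butyrate 3 of 4 called lower), and their part in the myotube results was not tested. The number of members called is to be read against a background in which most genes moved. The median log2 change of the 10 members was -0.15 in adipocytes, -0.60 in macrophages and -0.19 in myotubes, and the median of all tested genes was 0 in each. The 5 members lowered in all 3 of these cell types stand beside 16.4% of all tested genes. Ikbkg, whose low level with butyrate in hepatocytes was known at the choice, is among the 5. The paper describes butyrate responses as largely shared between the cell types. These falls are thus not independent of the choice of the family. Macrophage controls also had 4 of 4 proliferation markers higher than butyrate libraries (summed 1395 to 1429 against 558 to 657 CPM) and 4 of 7 macrophage markers higher, and the part of this in the macrophage results was not tested.

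Nfkb1, which encodes p105 and its product p50, had the largest estimated fall among the subunits in these 3 cell types. In adipocytes it measured 68.8, 65.6 and 67.3 CPM in the controls and 26.9, 26.1 and 26.8 CPM with butyrate. In macrophages the values were 92.3, 88.9 and 92.2 CPM against 43.8, 40.5 and 40.8 CPM, and in myotubes 48.7, 48.7 and 46.2 CPM against 21.3, 21.2 and 21.3 CPM. Every butyrate library lay below every control of its cell type. The log2 change was -1.34 (SE 0.05, adjusted p = 9.34e-20) in adipocytes, -1.13 (SE 0.05, adjusted p = 8.05e-19) in macrophages and -1.17 (SE 0.05, adjusted p = 2.97e-18) in myotubes, which is 2.53-fold, 2.19-fold and 2.25-fold lower (edgeR, here and below).

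Rela fell by nearly the same factor in each of the 3 cell types. The controls held 77.3, 69.3 and 74.2 CPM in adipocytes, 98.5, 99.1 and 101 CPM in macrophages and 65.7, 64.7 and 67.1 CPM in myotubes. With butyrate they held 42.1, 40.0 and 43.6 CPM, 53.7, 56.8 and 60.5 CPM, and 35.8, 38.3 and 40.2 CPM in the same order. No butyrate library reached its controls. The log2 changes of -0.81, -0.80 and -0.79 (SE 0.06 each) had adjusted p-values of 2.19e-13, 1.23e-13 and 4.81e-13, or 1.76-fold, 1.74-fold and 1.73-fold lower, and the test across the 3 cell types gave an adjusted p of 0.984 for a difference between them.

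Relb, the partner of p52 in the non-canonical pathway, was lower with butyrate in these 3 cell types. It measured 20.9, 18.4 and 19.6 CPM in adipocyte controls and 13.7, 13.2 and 13.4 CPM with butyrate. In macrophages it went from 15.9, 15.1 and 15.7 CPM to 9.91, 10.4 and 11.0 CPM, and in myotubes from 19.5, 18.3 and 16.3 CPM to 11.0, 13.1 and 10.9 CPM. The groups did not overlap in any of the 3 cell types. The changes were -0.55, -0.58 and -0.63 log2 units (SE 0.08 each, adjusted p = 6.4e-07, 4.16e-07 and 7.42e-08).

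Nfkb2, the other gene of the non-canonical dimer, showed small changes. In adipocytes it rose slightly, from 30.0, 31.9 and 33.4 CPM to 36.4, 38.1 and 35.5 CPM, with all butyrate libraries above all controls (0.21 log2, SE 0.07, adjusted p = 0.0101). This call was lost without adipocyte control 1 (adjusted p = 0.0617) and without a filter on low counts (0.128). In macrophages (50.9 ± 2.44 against 52.0 ± 1.99 CPM, 0.03 log2, adjusted p = 0.721, but 0.25 with adjusted p = 0.00137 on library totals alone) and myotubes (56.9 ± 2.42 against 54.4 ± 2.73 CPM, -0.06 log2, adjusted p = 0.401) the groups overlapped. Reads of Nfkb2 cannot be told apart from those of AC114539.1 and Psd where exons overlap on the opposite strand (531 and 299 bases), since it is not stated whether the counting used strand. AC114539.1 was at 3.55 CPM and Psd at 3.53 CPM in adipocyte controls.

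Rel went in opposite directions in adipocytes and macrophages. Macrophages, the cells with most Rel, held 77.0, 78.6 and 82.4 CPM in the controls and 43.1, 44.6 and 41.1 CPM with butyrate, a fall of all libraries by 1.85-fold (-0.88 log2, SE 0.08, adjusted p = 1.63e-11). In adipocytes, at a far lower level, it rose from 8.88, 9.13 and 9.75 CPM to 12.1, 11.2 and 13.6 CPM (0.41 log2, SE 0.09, adjusted p = 0.000427). In myotubes it stood at 14.7 ± 1.40 and 13.8 ± 0.994 CPM with overlapping groups (-0.09 log2, 95% confidence interval -0.27 to 0.09, adjusted p = 0.366).

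Nfkbia, which encodes IκBα, had lower levels with butyrate in 3 cell types. Adipocyte controls measured 40.0, 45.2 and 40.1 CPM and butyrate libraries 29.7, 34.9 and 35.7 CPM (-0.32 log2, SE 0.09, adjusted p = 0.00174). Macrophages went from 46.2, 51.6 and 50.1 CPM to 29.3, 29.8 and 37.5 CPM (-0.61 log2, SE 0.08, adjusted p = 2.01e-07). In both the groups were apart, with 1 macrophage library given butyrate nearer to its controls than the other two. Myotubes went from 14.9, 15.4 and 15.4 CPM to 11.2, 11.3 and 14.7 CPM (-0.30 log2, SE 0.10, adjusted p = 0.00874). The highest myotube library given butyrate lay just under the lowest control, and the call was lost without butyrate library 1 (adjusted p = 0.0614) or 2 (0.0571) and with library totals alone as the scale (-0.16 log2, adjusted p = 0.170). It was also lost in a model of the 9 myotube libraries alone (-0.27 log2, adjusted p = 0.0540) and at an unadjusted P below 0.001.

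Tnfaip3, the ubiquitin-editing enzyme A20, rose in adipocytes and was not called in macrophages or myotubes. In adipocytes it went from 6.37, 7.93 and 5.40 CPM to 13.2, 12.8 and 12.8 CPM, a 1.97-fold rise with the groups far apart (0.98 log2, SE 0.10, adjusted p = 4.23e-10). In macrophages the butyrate libraries (23.6, 24.6 and 25.1 CPM) lay under the controls (26.7, 29.2 and 26.9 CPM), but the change of -0.17 log2 missed the threshold (SE 0.08, adjusted p = 0.0564) and passed it with limma-voom (0.0373) and DESeq2 (0.0443). Myotubes held 25.0 ± 1.17 and 24.0 ± 1.45 CPM (adjusted p = 0.546). The difference between cell types was itself tested and is given with the other members.

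Ikbkg, the scaffold NEMO without which the canonical complex does not form, fell in all 3 cell types by unequal factors. Macrophages held 95.5, 92.4 and 91.8 CPM in the controls and 41.9, 39.6 and 40.7 CPM with butyrate, and adipocytes 59.4, 52.8 and 53.8 CPM against 34.0, 31.9 and 31.3 CPM. In myotubes the fall was small, from 49.5, 47.1 and 49.6 CPM to 39.5, 41.3 and 38.4 CPM. All groups were apart. The log2 change was -1.19 (SE 0.06, adjusted p = 1.89e-17) in macrophages, -0.77 (SE 0.06, adjusted p = 9.81e-13) in adipocytes and -0.29 (SE 0.06, adjusted p = 4.72e-05) in myotubes, or 2.29-fold, 1.71-fold and 1.23-fold lower.

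The kinases of the complex showed changes of at most 0.28 log2 units in these cells. Ikbkb, the kinase of the canonical pathway, rose from 31.8, 27.7 and 29.0 CPM to 34.3, 37.5 and 35.4 CPM in adipocytes (0.28 log2, SE 0.05, adjusted p = 1.21e-05) and from 65.1, 68.4 and 65.6 CPM to 76.5, 79.3 and 81.1 CPM in macrophages (0.25 log2, SE 0.05, adjusted p = 1.64e-05). The groups did not overlap in either. In myotubes the butyrate libraries (32.0, 33.8 and 33.7 CPM) lay just under the controls (34.2, 33.9 and 34.0 CPM), and the change of -0.04 log2 was not called (95% confidence interval -0.14 to 0.06, adjusted p = 0.503). Chuk, the kinase shared by both pathways, rose in macrophages from 50.4, 51.4 and 55.1 CPM to 59.5, 58.2 and 60.0 CPM (0.18 log2, SE 0.08, adjusted p = 0.0422). That call was lost when control 1, control 2, butyrate 1 or butyrate 3 of the macrophages was left out and without a filter on low counts (adjusted p = 0.110). In adipocytes (51.2 ± 1.03 against 51.8 ± 1.39 CPM, 0.02 log2, adjusted p = 0.882) and myotubes (36.5 ± 0.791 against 38.4 ± 1.14 CPM, 0.07 log2, adjusted p = 0.435, but 0.21 with adjusted p = 0.0417 on library totals alone) its groups overlapped.

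Ikbkg lies at chrX:74393290-74453854 (GRCm38) on the plus strand, 18 bases from the start of Fam3a, which runs the other way, and its exons share 418 bases with G6pdx on the opposite strand. Fam3a fell as well, by 0.30 log2 units in adipocytes (adjusted p = 0.000613), by 0.58 in macrophages (4.6e-08) and by 0.54 in myotubes (6.66e-07). G6pdx, the first enzyme of the pentose phosphate pathway, changed by -0.01 in adipocytes (adjusted p = 0.977), -0.27 in macrophages (0.0424) and -0.15 in myotubes (0.338). Since strand use in counting is not stated, reads from the 418 shared bases cannot be told apart, and G6pdx was at 354 CPM in adipocyte controls against 55.3 CPM for Ikbkg.

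**Figure D3:**
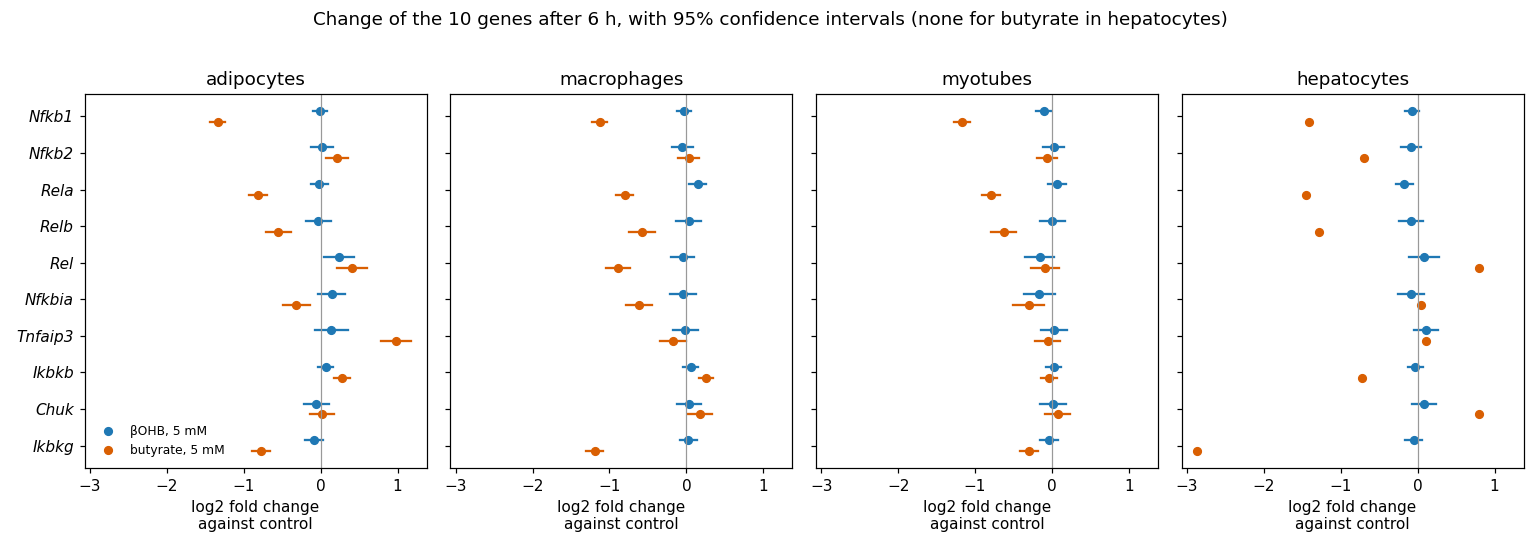
Log2 change with butyrate and with βOHB against control for each member in each cell type, with 95% confidence intervals from the edgeR fit, except for butyrate in hepatocytes, whose values chose the family and stand without an interval. In the other 3 cell types butyrate changes run from -1.34 (Nfkb1 in adipocytes) to 0.98 (Tnfaip3 in adipocytes), and βOHB changes in all 4 from -0.17 to 0.24.

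In hepatocytes, the cells whose values chose the family, Ikbkg measured 213, 241 and 209 CPM in the controls and 30.3, 30.2 and 30.4 CPM with butyrate, which left 13.7% of the control level (7.29-fold lower). Rela went from 217, 232 and 228 CPM to 85.8, 82.0 and 80.2 CPM, Nfkb1 from 110, 116 and 118 CPM to 42.8, 41.3 and 45.2 CPM, and Relb from 36.9, 34.8 and 33.3 CPM to 15.2, 15.3 and 12.5 CPM, which is 2.73-fold, 2.66-fold and 2.44-fold lower. All butyrate libraries lay below all controls for these 4 genes, in a comparison where 63.5% of all tested genes were called. How many of all genes had groups apart in this way was not counted. Nfkb2 (142, 145 and 148 CPM against 94.2, 80.9 and 92.0) and Ikbkb (72.8, 74.8 and 75.8 CPM against 47, 43.9 and 44.8) were also lower in every library, by 1.63-fold and 1.65-fold.

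Chuk and Rel had higher levels in these hepatocytes. Chuk measured 98.2, 89.4 and 92.1 CPM in the controls and 163, 169 and 155 CPM with butyrate, and Rel 12.6, 13.5 and 15.8 CPM against 21.9, 25.4 and 25.6 CPM, each 1.74-fold higher with no overlap. Nfkbia stood at 95 ± 4.22 and 97.6 ± 3.12 CPM with overlapping groups, and Tnfaip3 at 52.9 ± 4.81 and 57.1 ± 1.34 CPM, its butyrate libraries just above the controls. Of all tested genes 63.5% were called in this comparison (31% higher and 32.4% lower), and 63.5% against βOHB. Since these values chose the family, no count of its members is set against those shares. Fam3a, the neighbour of Ikbkg, was at 24.9 ± 2.19 CPM in hepatocyte controls and 8.41 ± 1.13 CPM with butyrate, and G6pdx at 38.8 ± 2.74 and 132 ± 2.49 CPM. Endothelial markers summed to 66.4 to 74.2 CPM in the controls and 20.2 to 23.6 CPM with butyrate (5 of 5 lower), and 5 Kupffer cell markers to 7.44 to 8.84 CPM and 2.92 to 3.66 CPM, of which the 2 that passed the filter on low counts were both lower. The part of these cells in the hepatocyte values was not tested.

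Ratios taken within a library describe the balance between partners. Ikbkg to Chuk went from a mean of 1.79 in macrophage controls to 0.688 with butyrate, from 1.08 to 0.626 in adipocytes, from 1.34 to 1.04 in myotubes and from 2.38 to 0.187 in hepatocytes. Ikbkb to Chuk had means of 0.801 and 0.279 in hepatocytes, 0.932 and 0.864 in myotubes, 1.27 and 1.33 in macrophages and 0.575 and 0.689 in adipocytes. The mean ratio of the scaffold to Chuk was lower with butyrate in adipocytes, macrophages and myotubes, and in hepatocytes, whose values chose the family. That of the kinases was lower in hepatocytes. In myotubes its mean was lower but the libraries overlapped (0.906 to 0.947 in the controls, 0.816 to 0.908 with butyrate). Nfkb1 to Nfkb2, the precursors of p50 and p52, went from 2.12 to 0.726 in adipocytes, from 1.79 to 0.804 in macrophages, from 0.843 to 0.391 in myotubes and from 0.791 to 0.486 in hepatocytes. Rela to Nfkbia, the subunit to its inhibitor, went from 1.77 to 1.26, from 2.02 to 1.78, from 4.32 to 3.10 and from 2.38 to 0.847 in the same cells. No test was run on ratios. These are ratios of CPM not corrected for length, so they compare groups, not the amounts of the partners.

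**Figure D4:**
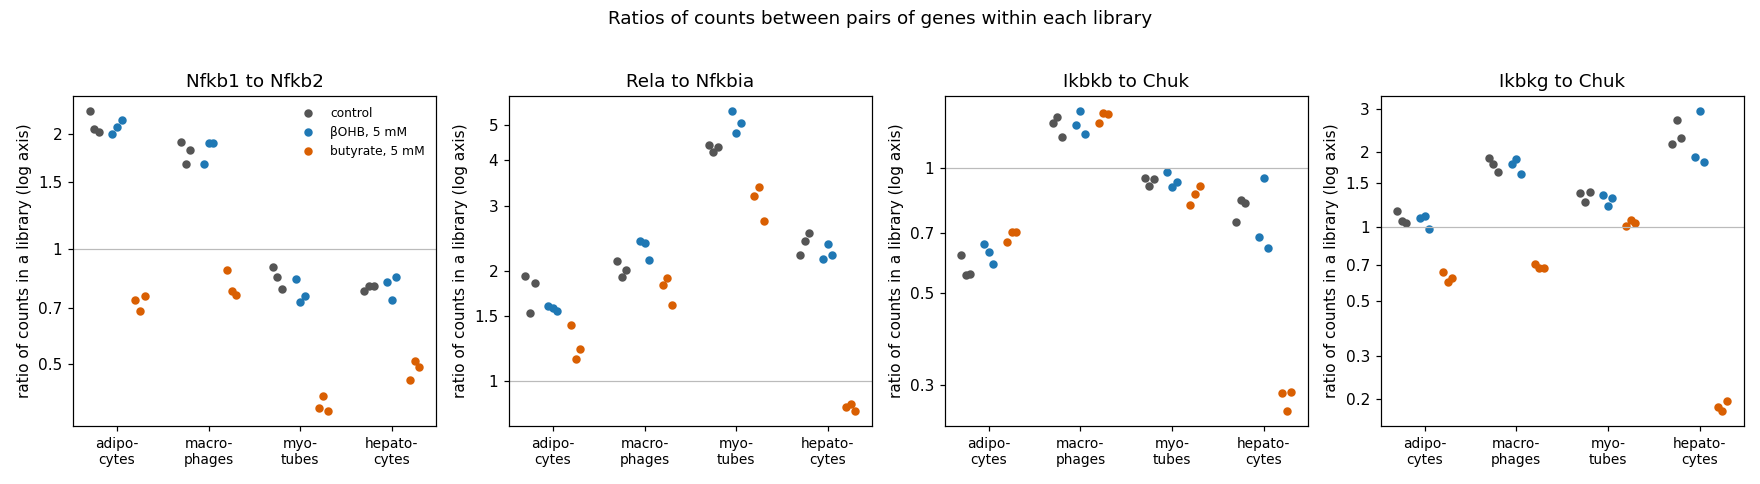
Ratio of CPM between pairs of members within each library (log axis) by cell type and treatment, with 3 points a group and a line at a ratio of 1. Ikbkg to Chuk has a mean of 0.187 in hepatocytes given butyrate against 2.38 in their controls. Nfkb1 to Nfkb2 has a mean of 0.726 in adipocytes given butyrate against 2.12 in their controls.

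The size of the butyrate effect differed between adipocytes, macrophages and myotubes for 7 of 10 members, against 59.5% of all tested genes, in a test of the cell type by butyrate interaction in edgeR at an FDR below 0.05. Rel had the widest spread, with 1.29 log2 units between the highest change (0.41 in adipocytes) and the lowest (-0.88 in macrophages; adjusted p = 9.09e-10). Tnfaip3 spread over 1.15 units (adjusted p = 9.4e-09) and Ikbkg over 0.90 units (adjusted p = 5.61e-10), and these 3 differences exceeded those of all other members. Ikbkb differed by 0.32 (adjusted p = 0.000294), Nfkbia by 0.31 (0.047), Nfkb2 by 0.27 (0.0439) and Nfkb1 by 0.21 (0.0193). The calls of Nfkb1, Nfkb2 and Nfkbia were lost, which left 4 members, without adipocyte control 1 (adjusted p = 0.0543, 0.129 and 0.0704), without adipocyte butyrate 2 (0.0644, 0.0987 and 0.0736) and without a filter on low counts (0.315, 0.117 and 0.121). An unadjusted P below 0.001 also left 4 members, and leaving out any single library gave 4 to 7. No difference was shown for Rela (0.02, adjusted p = 0.984), Relb (0.08, 0.829) and Chuk (0.16, 0.402).

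The myotube values include 4 libraries with hepatocyte markers, butyrate 1, 2 and 3 and βOHB 3. In a fit chosen after seeing the data, butyrate 2 and 3 and βOHB 3 were left out, and butyrate 1, which itself held 31.1 CPM of these markers, was kept as the lone butyrate library and assumed to vary like the other groups. No fit without any such library is possible for butyrate in myotubes. Nfkb1 was then at -1.14 log2 units, Rela at -0.85, Relb at -0.69, Nfkbia at -0.42 and Ikbkg at -0.28 against control, and 5 members were called, against 54.8% of all tested genes. The interaction then held for 5 members, against 54.1% of genes, with Nfkbia (adjusted p = 0.0893) and Nfkb2 (0.194) no longer past the threshold.

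βOHB changed no member detectably in any cell type. In adipocytes 0 of 10 members passed an FDR below 0.05 in edgeR, against 0.00652% of tested genes, and 1 had an unadjusted P below 0.05 (Rel, 0.24 log2, adjusted p = 0.629). In macrophages 0 passed, against 0% of genes, and 1 had an unadjusted P below 0.05 (Rela, 0.15 log2, adjusted p = 1). In myotubes 0 passed, against 2.91% of genes, and 1 had an unadjusted P below 0.05 (Nfkb1, -0.11 log2, adjusted p = 0.29). In hepatocytes 0 passed, against 0.00652% of genes, and 1 had an unadjusted P below 0.05 (Rela, -0.17 log2, 95% confidence interval -0.28 to -0.06, adjusted p = 0.655). limma-voom and DESeq2 also gave 0 in each cell type. The changes of all 10 members lay between -0.09 and 0.24 log2 units in adipocytes, -0.06 and 0.15 in macrophages, -0.17 and 0.06 in myotubes and -0.17 and 0.11 in hepatocytes. Rela, the unadjusted candidate in both macrophages and hepatocytes, measured 110, 115 and 105 CPM in macrophages given βOHB and 196, 214 and 192 CPM in hepatocytes, above the controls in the first and below them in the second. Chuk in hepatocytes given βOHB varied between libraries, at 107, 78.9 and 111 CPM. The test for an effect of βOHB that differs between the 4 cell types called 0 members, against 0.978% of genes (Rela adjusted p = 0.124), and 2 had an unadjusted P below 0.05. Rela passed this test with DESeq2 (adjusted p = 0.0191) and without hepatocyte βOHB 2 (0.0469 in edgeR).

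At the same 5 mM and 6 h, the compounds themselves were set against each other, with the hydroxyl group as their difference in structure, in 30 tested pairs (10 members in 3 cell types). Their p-values were adjusted over all tested genes of each comparison. In adipocytes 8 members differed, 3 higher and 5 lower with butyrate, against 59.5% of genes. In macrophages 7 differed, 1 higher and 6 lower, against 64.7% of genes, and in myotubes 4 differed, all lower, against 66% of genes. Nfkb1 was lower with butyrate than with βOHB by 1.33, 1.09 and 1.06 log2 units in adipocytes, macrophages and myotubes, with 26.6 ± 0.411 against 66.7 ± 3.56 CPM in adipocytes. Rela was lower by 0.79, 0.95 and 0.85 and Ikbkg by 0.68, 1.22 and 0.25. Tnfaip3 was higher by 0.84 in adipocytes (12.9 ± 0.218 against 7.22 ± 0.492 CPM, adjusted p = 9.8e-09) and Rel lower by 0.84 in macrophages (43.0 ± 1.74 against 76.6 ± 6.58 CPM, adjusted p = 5.8e-11). Ikbkg in myotubes missed the threshold without butyrate 2 and 3 and βOHB 3 (-0.18, adjusted p = 0.0826) and with library totals alone as the scale (-0.054, adjusted p = 0.380).

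Other pairs were not separated at an FDR below 0.05, some of them only under the main scaling and with all libraries. Chuk differed by 0.07 log2 units in adipocytes (95% confidence interval -0.09 to 0.23), 0.14 in macrophages (-0.02 to 0.30) and 0.06 in myotubes (-0.10 to 0.22). Rel in adipocytes, raised by butyrate against control, differed from βOHB by 0.17 (-0.02 to 0.36, adjusted p = 0.125), with 10.7, 11.0 and 11.1 CPM for βOHB. Nfkbia in myotubes differed by -0.13 (-0.34 to 0.07, adjusted p = 0.247). With library totals alone as the scale, Chuk was separated in macrophages (0.37, adjusted p = 0.000449) and myotubes (0.26, 0.0132), Rel in adipocytes (0.29, 0.00582) and myotubes (0.27, 0.00691), Nfkb2 in macrophages (0.31, 0.000154) and Ikbkb in myotubes (0.14, 0.0184). In a model of the 9 macrophage libraries alone, Chuk (adjusted p = 0.0101) and Nfkb2 (0.0462) were separated. Leaving out 1 library separated Chuk (adjusted p = 0.0390) and Tnfaip3 (0.0394) in macrophages without βOHB 3, Rel in adipocytes without butyrate 2 (0.0448) and Nfkbia in myotubes without butyrate 3 (0.0247). Nfkb2 in adipocytes, which was separated at 0.19 (adjusted p = 0.0178), was not without βOHB 2 (0.0904), βOHB 3 (0.0846) or butyrate 2 (0.0597), nor without a filter on low counts (0.183). Ikbkb also lost its call without that filter in adipocytes (adjusted p = 0.107) and in macrophages (0.0519), where it was the member counted as higher. These intervals do not show that the compounds act alike, only which sizes of difference the libraries allow.

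Of 94 further genes of the pathway in 5 lists, 86 were tested, and they moved in both directions with butyrate. In adipocytes 27 rose and 29 fell, in macrophages 31 rose and 33 fell, and in myotubes 24 rose and 33 fell, with medians of -0.02, -0.09 and 0.05 log2 units beside 0 for all genes. Their hepatocyte values belong to the comparison that chose the family and are described without a count. Called in all were 56, 64 and 57 of 86 in adipocytes, macrophages and myotubes, beside the shares of all genes given above.

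Among 19 inhibitors, adipocytes had 9 raised and 4 lowered, macrophages 8 and 6, and myotubes 5 and 7. Nkiras1, which holds IκB complexes back from degradation, rose by 1.01, 1.37 and 0.71 log2 units in these cells and was 0.93 higher in hepatocytes. Nfkbie, the inhibitor IκBε, rose by 0.88, 0.73 and 0.85, whereas Bcl3, an atypical IκB in the nucleus, fell by 2.35 in adipocytes (29.8 to 5.82 CPM) and by 1.02 in macrophages. Among 30 upstream kinases and adaptors, adipocytes had 10 raised and 10 lowered, macrophages 10 and 14, and myotubes 9 and 11. Cul1, the scaffold of the ubiquitin ligase that marks IκB for degradation, fell by 1.42, 1.22 and 1.53 and was 1.82 lower in hepatocytes. Irak1, a kinase under the interleukin-1 and Toll-like receptors, fell by 0.51, 0.83 and 0.52, while Malt1, a paracaspase that feeds IKK in lymphocytes, rose by 1.35, 0.38 and 1.45.

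Among 10 receptors 2 rose and 4 fell in adipocytes, and 3 rose and 6 fell in macrophages and in myotubes. Tnfrsf12a (Fn14), the receptor for TWEAK, fell by 2.17, 1.71 and 1.50 log2 units, and its ligand Tnfsf12 (TWEAK) by 0.70, 1.64 and 1.01. Il1r1, the receptor for interleukin-1, rose by 2.25 in macrophages and 1.93 in myotubes, and Cd40 by 2.14 and 1.91. Neither was called higher in adipocytes. Tlr4, the receptor for endotoxin, fell by 1.26, 1.96 and 1.31, from 125 to 32.1 CPM in macrophages. Of 10 ligands only 5 were tested, of which 0 rose and 3 fell in adipocytes and 1 rose and 3 fell in macrophages and in myotubes. The ligand that rose was Tnfsf11 (RANKL), by 1.14 in macrophages and 2.84 in myotubes, where its mean went from 0.345 to 2.49 CPM. Of 25 target genes 22 were tested, and adipocytes had 6 raised and 8 lowered, macrophages 9 and 4, and myotubes 6 and 6. Cflar, an inhibitor of caspase-8, fell by 1.54, 1.00 and 0.54 and Birc3 by 1.13, 0.71 and 0.42, whereas Ier3 rose by 1.25, 0.53 and 1.11. With βOHB, 2 of the 86 genes were called, both in myotubes, where 2.91% of all tested genes were. Tnfrsf11a (RANK) went from 1.81 to 0.404 CPM (-2.14 log2, adjusted p = 0.000218) and Tnf from 0.327 to 0.0755 CPM (-2.04 log2, adjusted p = 0.0389). In the same comparison 7 of 7 macrophage markers were called lower, and their part in these 2 calls was not tested.

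Over the 12 group means of log2 CPM, the gene most like each member was Eif4a1 for Nfkb1 (Pearson r = 0.986), Ppp1r35 for Nfkb2 (0.985), Ccdc71 for Rela (0.987), Dctn2 for Relb (0.984) and Pitpnc1 for Rel (0.983). It was Pdcd6 for Nfkbia (0.986), Sinhcaf for Tnfaip3 (0.982), Ninj1 for Ikbkb (0.994), Crot for Chuk (0.988) and Fadd for Ikbkg (0.983). These r describe 12 points that share cell types and treatments, and each is the highest over all tested genes. No member was the nearest gene of another.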

How the data were processed

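The authors assigned paired reads of 150 bases (BGISEQ-500) with Salmon 1.2.1 to mouse transcripts on GRCm38.p6 and summed them per gene with tximport. The deposited values are estimated counts, not scaled to depth, and 55.6% of those above 0 were exactly whole, with no tolerance. They were rounded, scaled by TMM and tested with edgeR 4.0.16 (R 4.3.3, quasi-likelihood) over 15340 genes and all 36 libraries, with 12 group means and Benjamini-Hochberg adjustment at an FDR below 0.05. Symbols came from GENCODE (54094 of 54347 genes). No pair of replicates was a repeat of 1 library (chi-square per gene 2.68 to 41.7 over 36 pairs). The butyrate samples carry a second label that names bOHB, and title and treatment label, which say butyric acid, were used.

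The members, lists and rules were chosen with earlier results of these data known. All members are named, and of each list the genes given are examples from the up to 2 raised and 2 lowered genes of smallest P in a butyrate comparison and all called with βOHB. The model was checked on simulated data. Alternatives were limma-voom (limma 3.58.1), DESeq2 1.42.0, other scalings, filters, libraries and thresholds, and a replicate block.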

Additional observations from a re-analysis of the deposited data

Results flagged for a closer look

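The butyrate effect differed between adipocytes, macrophages and myotubes for 7 members by the test of the interaction in edgeR. By the same test 59.5% of all tested genes differed at an FDR below 0.05, so a count of this kind was common among genes. The gap between the highest and the lowest log2 change was 1.29 for Rel, 1.15 for Tnfaip3, 0.90 for Ikbkg, 0.32 for Ikbkb, 0.31 for Nfkbia, 0.27 for Nfkb2 and 0.21 for Nfkb1. Rel rose in 3 of 3 adipocyte libraries and fell in 3 of 3 macrophage libraries against all controls.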

How the results depend on the processing

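Leaving aside butyrate in hepatocytes, whose values chose the family, 223 counts of members under the alternatives stayed within 1.5 times the main count and 6 did not. Levels per kb depended more on the processing. With the length of the longest transcript 32 of them moved by at least their SD and 8 did not. The number of members whose butyrate effect differed between cell types went from 7 to 4 without a filter on low counts and to 4 at an unadjusted P below 0.001, and leaving out single libraries gave 4 to 7. It was 4 without adipocyte control 1 or without adipocyte butyrate 2, where Nfkb1, Nfkb2 and Nfkbia were lost. The number whose βOHB effect differed went from 0 to 1 with DESeq2 (Rela, adjusted p = 0.0191), and single libraries gave 0 to 1 (Rela without hepatocyte βOHB 2, adjusted p = 0.0469). Library totals alone turned Ikbkb in myotubes, butyrate against βOHB, from -0.06 to 0.14 log2 and Ikbkb in control macrophages against hepatocytes from -0.17 to 0.080. They moved the median of all genes with butyrate by 0.20 in macrophages and 0.13 in myotubes, and the share of higher among called genes from 49.0% to 66.7% and from 49.8% to 61.8%.

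With the replicate number as a replicate block, 6 members passed the butyrate interaction and the other counts run with it, those of the treatment comparisons outside butyrate in hepatocytes and of the βOHB interaction, equalled their main values. Control levels were not fitted with the block. Same-numbered samples had correlated deviations of -0.26 to 0.27, with no pair of groups above 0.1 for all 3 numbers, so the numbers were not taken as pairing. Adipocyte control and butyrate libraries each correlated best with their own number (3 of 3, r from 0.016 to 0.054), and the other adipocyte pairs of groups in 2 of 3, a hint from the data and not from the design. Leaving out 1 library gave 8 to 9 members called in adipocytes, 7 to 8 in macrophages and 4 to 5 in myotubes with butyrate. Among log2 fold changes of single members, again without butyrate in hepatocytes, 36 lost and 16 gained the call under an alternative, 2186 kept it or stayed uncalled, and the 2 Ikbkb values that turned direction also changed their call.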
